A study of Drosophila melanogaster with 2 samples.

Results

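A divergent promoter pair is a pair of genes transcribed away from each other, with the transcription start site (TSS) of the minus-strand gene on the left and that of the plus-strand gene on the right. Of the 5743 peaks in the optimal set of a ChIP-seq experiment on the forkhead protein fd96Cb, 772 had their summit, the position of highest signal, between such a pair of protein-coding TSSs no more than 1000 bp apart. The optimal set, marked IDR in the plots, is the authors' selection by the irreproducible discovery rate, a procedure that compares peak ranks between replicates. The 772 peaks are called gap peaks below, and the sequence between the nearest pair of TSSs is called the gap. They belonged to 750 gene pairs, 22 of which held 2 each, and had 1496 genes at their sides. Gap peaks were set against 1302 other upstream peaks, whose summit lay within 1000 bp upstream of the nearest TSS but in no such gap. Of these, 1027 lay within 500 bp.

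The material was whole Drosophila melanogaster embryos 0 to 24 h old, from transgenic flies in which fd96Cb carries green fluorescent protein (GFP) at its C-terminus. The labels describe an immunoprecipitation against GFP but name fd96Cb in their antibody field, and they give sonicated fragments of 200 to 800 bp. The 2 libraries, biological replicates 2 and 3, form a single group, with no untagged or mutant group among the samples. Whole embryos were used, so the signal is a mix over all their tissues. The promoter that drives the transgene and the number of embryos per library are not stated in the labels.

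Genes in divergent pairs share 1 stretch of open chromatin from which RNA polymerase II leaves in both directions, and many of them serve functions that all cells need. Forkhead proteins bind DNA through a winged-helix domain, and many members of the family recognise sequences with TAAACA at their core. fd96Cb and its neighbour fd96Ca are the FoxB proteins of the fly. In Drosophila, factors such as DREF, BEAF-32 and M1BP are known for binding promoters of housekeeping genes.

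The sequences below belong to the 8 strongest gap peaks on X, 2L, 3L, 3R and 4 with no further start site and no annotated exon in the gap. They are shown because the results turn on how the summit lies between the start sites and on base composition. They are plus-strand reference sequence, 5′ to 3′, from Release 6 of the genome (dm6), with 1-based positions. For Art3/mRpS10, Tcs5/CHMP2B, CG13390/CG17294 and Lon/PIG-F, all bases between both TSSs are printed. For the longer gaps of the other 4 pairs, only the bases of the gap within 50 bp of the summit are printed. Capitals mark the 21 bases centred on the summit.
Ugalt/eIF2Bbeta (chrX:2703853-2703935): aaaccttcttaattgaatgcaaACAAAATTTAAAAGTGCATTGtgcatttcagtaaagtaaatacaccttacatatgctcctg
Art3/mRpS10 (chr3R:15229409-15229664): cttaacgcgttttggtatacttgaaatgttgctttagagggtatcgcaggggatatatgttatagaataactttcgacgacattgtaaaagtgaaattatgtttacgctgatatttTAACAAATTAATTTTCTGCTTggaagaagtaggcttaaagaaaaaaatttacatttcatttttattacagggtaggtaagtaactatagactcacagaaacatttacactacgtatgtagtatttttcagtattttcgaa
Tcs5/CHMP2B (chr3L:5139396-5139618): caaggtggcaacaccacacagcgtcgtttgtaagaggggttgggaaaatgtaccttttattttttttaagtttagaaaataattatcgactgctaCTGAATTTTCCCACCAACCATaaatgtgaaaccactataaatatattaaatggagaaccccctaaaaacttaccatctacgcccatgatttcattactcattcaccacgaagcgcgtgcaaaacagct
CG5611/Mtl (chr3R:27636119-27636219): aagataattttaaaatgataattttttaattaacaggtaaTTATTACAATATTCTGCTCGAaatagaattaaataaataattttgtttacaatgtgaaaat
mRpS23/CenG1A (chr2L:13835392-13835492): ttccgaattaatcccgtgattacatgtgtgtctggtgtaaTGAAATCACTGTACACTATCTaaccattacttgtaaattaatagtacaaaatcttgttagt
CG13390/CG17294 (chr2L:8376798-8377034): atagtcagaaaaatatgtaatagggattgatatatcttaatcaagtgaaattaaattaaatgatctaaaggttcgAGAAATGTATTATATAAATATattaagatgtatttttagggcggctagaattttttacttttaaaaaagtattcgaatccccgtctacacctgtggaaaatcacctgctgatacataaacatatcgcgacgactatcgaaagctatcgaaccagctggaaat
Lon/PIG-F (chr3L:19612200-19612454): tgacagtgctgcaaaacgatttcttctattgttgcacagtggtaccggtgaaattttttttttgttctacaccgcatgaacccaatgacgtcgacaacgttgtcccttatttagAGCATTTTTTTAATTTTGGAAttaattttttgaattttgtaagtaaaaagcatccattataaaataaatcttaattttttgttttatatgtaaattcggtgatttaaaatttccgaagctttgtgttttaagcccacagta
eIF4EHP/CG18428 (chr3R:24109147-24109247): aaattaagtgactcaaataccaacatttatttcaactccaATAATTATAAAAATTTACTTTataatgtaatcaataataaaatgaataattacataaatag

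The capitals stand close to the middle of the printed gap in Art3/mRpS10, Tcs5/CHMP2B and Lon/PIG-F. GC content was 30.1% in the printed stretch of Ugalt/eIF2Bbeta, 30.1% in Art3/mRpS10, 38.1% in Tcs5/CHMP2B and 15.8% in CG5611/Mtl. Among the forkhead patterns searched, GTAAACA occurred in the sequences of Art3/mRpS10 and CG5611/Mtl, TAAACA without the longer form in CG13390/CG17294, and GTAAATA in Ugalt/eIF2Bbeta. None of the 3 was on either strand of the stretches printed for Tcs5/CHMP2B, mRpS23/CenG1A, Lon/PIG-F or eIF4EHP/CG18428.

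For contrast, 2 gaps over 200 and up to 300 bp without any summit of the pooled list are printed in full, with capitals on the 21 bases around the midpoint. They were picked from 151 such gaps on X, 2L, 3L, 3R and 4 without an annotated exon inside, as those whose most AT-rich stretch, read in windows reaching 50 bp to either side of their centre, had a GC content nearest to the median of 23.8%. TyrRS encodes a tRNA synthetase.
TyrRS/CG33158 (chr3L:16419303-16419596): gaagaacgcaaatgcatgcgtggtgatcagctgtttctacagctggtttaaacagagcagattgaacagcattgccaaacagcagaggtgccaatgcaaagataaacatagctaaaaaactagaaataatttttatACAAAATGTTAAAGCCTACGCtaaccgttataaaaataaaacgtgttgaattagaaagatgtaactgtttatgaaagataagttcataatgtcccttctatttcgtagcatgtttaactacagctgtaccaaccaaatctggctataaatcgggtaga
CG9231/CG9330 (chr3L:19586004-19586252): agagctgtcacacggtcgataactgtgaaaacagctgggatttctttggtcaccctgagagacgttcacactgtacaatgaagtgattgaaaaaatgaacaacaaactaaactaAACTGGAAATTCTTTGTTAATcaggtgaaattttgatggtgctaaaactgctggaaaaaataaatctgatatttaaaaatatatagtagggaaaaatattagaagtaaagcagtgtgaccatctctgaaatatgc

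The gap of CG9231/CG9330 held GGTCACACT, the pattern of M1BP, on the minus strand (printed as AGTGTGACC), and CGATA, the core pattern of BEAF-32. TAAACA occurred in the gap of TyrRS/CG33158, so the letters of the forkhead core were also found where no peak was called.

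The strongest gap peak was that of Ugalt/eIF2Bbeta, the Golgi transporter of UDP-galactose and a subunit of the exchange factor for translation initiation factor eIF2. Its signal value, which is the authors' own and serves to rank peaks within a list, was 4936 in the optimal set, 2000.1 in replicate 2 and 2949 in replicate 3. It ranked second in all 3 lists. The summit lay 33 bp from the Ugalt TSS in a gap of 719 bp, so this peak stood at the edge of its gap.

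Next came mRpL41/CG8079, with a signal of 4183 in the optimal set and ranks of 3 in replicate 2 and 5 in replicate 3. mRpL41 codes for a protein of the large mitochondrial ribosomal subunit. The peak of Art3/mRpS10, an arginine methyltransferase gene and a gene of the small mitochondrial subunit, had a signal of 4011 and ranked 5 in replicate 2 and 6 in replicate 3. Its summit was 127 bp from one TSS and 130 bp from the other, 1.5 bp off the midpoint. Chro/Ssl1 had a signal of 3512 and ranks of 8 in replicate 2 and 9 in replicate 3. Chro is a chromodomain protein of polytene interbands and the mitotic spindle, and Ssl1 is a subunit of the general factor TFIIH. Tcs5/CHMP2B, of which CHMP2B is an ESCRT-III subunit of membrane scission, had a signal of 3181 and ranks of 9 in replicate 2 and 14 in replicate 3.

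The 20 strongest gap peaks lay 33 to 148 bp from the nearer TSS. Of these, 14 were within 50 bp of the gap midpoint, as were 49.7% of all gap peaks, and 15 were in gaps over 200 and up to 400 bp, as were 56.7% of all. None was in a gap of 200 bp or less, where 5.31% of all gap peaks lay. All 20 were among the best 138 peaks of replicate 2 and the best 111 of replicate 3. In 4 of the 20, one gene codes for a mitochondrial ribosomal protein: mRpL41, mRpS10, mRpS23 and mRpL23. Such a gene stood at 2.98% of all gap peaks. Others held the mitochondrial RNA-degrading enzyme PNPase (signal 3169), the mitochondrial protease Lon (2129.9), the cap-binding translational repressor eIF4EHP (2000.4), the JNK pathway kinase Mkk4 (1915), the tubulin acetyltransferase Atat (1882) and the cardiolipin pathway phosphatase PTPMT1 (1809).

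Over all gap peaks, signal differed little from that of other upstream peaks. The median was 277 (quartiles 184 and 464) for gap peaks and 271 (180 and 522) for other upstream peaks. Placed within the optimal set, the median gap peak stood at percentile 56.9 and the median other upstream peak at 55.9, or at 59.0 when only those within 500 bp were counted. The strongest quintile of the set held 180 gap peaks, 23.3% of them (Wilson 95% interval 20.5 to 26.4%), and 361 other upstream peaks, 27.7% (25.4 to 30.2%). Intervals cover counting only, and peaks of the same libraries are not replicates, so no test between these classes was made. Among the 10 strongest peaks of the whole set 5 were gap peaks and 3 were other upstream peaks, and among the 100 strongest the counts were 25 and 37. The whole set of 5743 peaks held 772 gap peaks and 1302 other upstream peaks, so the classes differ in size. Signal was higher in gaps over 200 and up to 400 bp, with a median of 309 over 438 gap peaks, than in gaps over 600 bp, with a median of 243 over 118.

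The share of pooled peaks that belonged to the optimal set was higher in gaps. Of the 1574 pooled peaks with a summit in a divergent gap, 772 belonged to the optimal set, which is 49.0%. The share was 30.2% for the 4316 other upstream pooled peaks and 19.1% for all 30000 pooled peaks.

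The replicates ranked gap peaks differently from each other. A peak was counted as strong in a replicate when one of the 5743 strongest summits of that replicate was the nearest within 100 bp. By this count 90.2% of gap peaks were strong in replicate 2 and 90.0% in replicate 3, against 85.2% and 90.1% of other upstream peaks. In both replicates at once the shares were 81.9% (79.0 to 84.4%) for gap peaks and 77.3% (74.9 to 79.5%) for other upstream peaks. The median rank of gap peaks was 2004 in replicate 2 and 2742 in replicate 3, while other upstream peaks had 2287 and 2472. Among peaks with a summit in both lists, 533 of 723 gap peaks ranked higher in replicate 2 than in replicate 3, or 73.7% (70.4 to 76.8%). The same was true of 52.2% (49.4 to 55.0%) of other upstream peaks and of 42.9% (41.3 to 44.6%) of the remaining 3382 optimal peaks with both ranks. The 20 strongest gap peaks had the same lean, with 15 ranked higher in replicate 2 and 4 in replicate 3. Summit positions were close, with a median of 21 bp between replicates for gap peaks and 20 bp for other upstream peaks. Ranks of gap peaks in both replicates had a Spearman correlation of 0.863 over the 723 peaks with both ranks, which share libraries and peak calling. The optimal set was selected by comparing ranks between these same replicates. The shares strong in both, the close summits and the correlation are therefore partly built in and do not measure reproducibility independently.

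**Figure D1:**
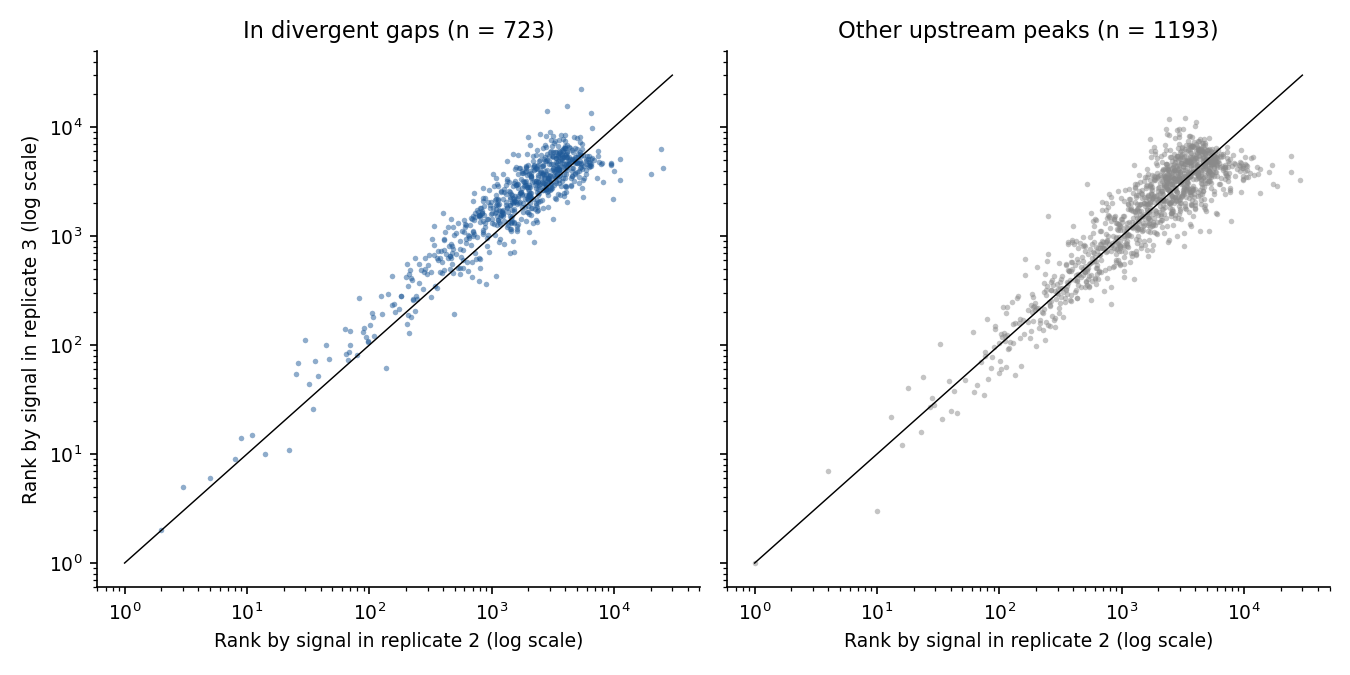
Rank by signal in replicate 2 (x axis, log scale) and in replicate 3 (y axis, log scale), 1 point per peak, for 723 gap peaks on the left and 1193 other upstream peaks on the right; the line marks equal ranks. Most gap peaks lie above the line (73.7% ranked higher in replicate 2), while other upstream peaks lie on both sides (52.2%).

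Among the 5 largest rank ratios, signal values ran from 145 at Kat60/Mms19 to 308 at Idua/Gr32a, against a median of 277 over all gap peaks. At Pfdn2/Noc1, where Pfdn2 is a prefoldin subunit, the rank was 25221 in replicate 2 and 4258 in replicate 3, a ratio of 5.92. At ppk29/eEF5 it was 20215 and 3702 in the same order, a ratio of 5.46. Kat60/Mms19, which includes the catalytic subunit of the microtubule-severing katanin, went the other way with 2820 in replicate 2 and 14006 in replicate 3.

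Summits lay mostly in the middle of gaps over 200 and up to 600 bp and mostly outside the middle of longer ones. The median gap around a gap peak was 353 bp, and the median summit lay 117 bp from the nearer TSS (quartiles 87 and 158). The nearer TSS was the plus-strand one for 51.8% (48.3 to 55.3%), close to an even split. In the middle 50% of the gap lay 75.1% of summits (72.0 to 78.0%). That share was 56.1% (41.0 to 70.1%) for the 41 peaks in gaps up to 200 bp, 86.3% for the 438 in gaps over 200 and up to 400 bp, 77.7% for the 175 in gaps over 400 and up to 600 bp and 36.4% for the 118 in gaps over 600 bp. The median distance to the nearer TSS was 39, 107, 168 and 165 bp in these 4 length classes. It thus stopped growing beyond gaps of 600 bp, where the median distance to the farther TSS was 588 bp. For other upstream peaks within 500 bp, the median distance to the TSS was 222 bp. That value and the 117 bp are not like measures. The nearer TSS of a gap peak is by construction at most 50% of the gap away, while other upstream peaks could lie anywhere up to 500 bp. In 122 gap peaks a further TSS of the same or another gene lay in the gap, and 86 were downstream of their nearest TSS for that reason.

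**Figure D2:**
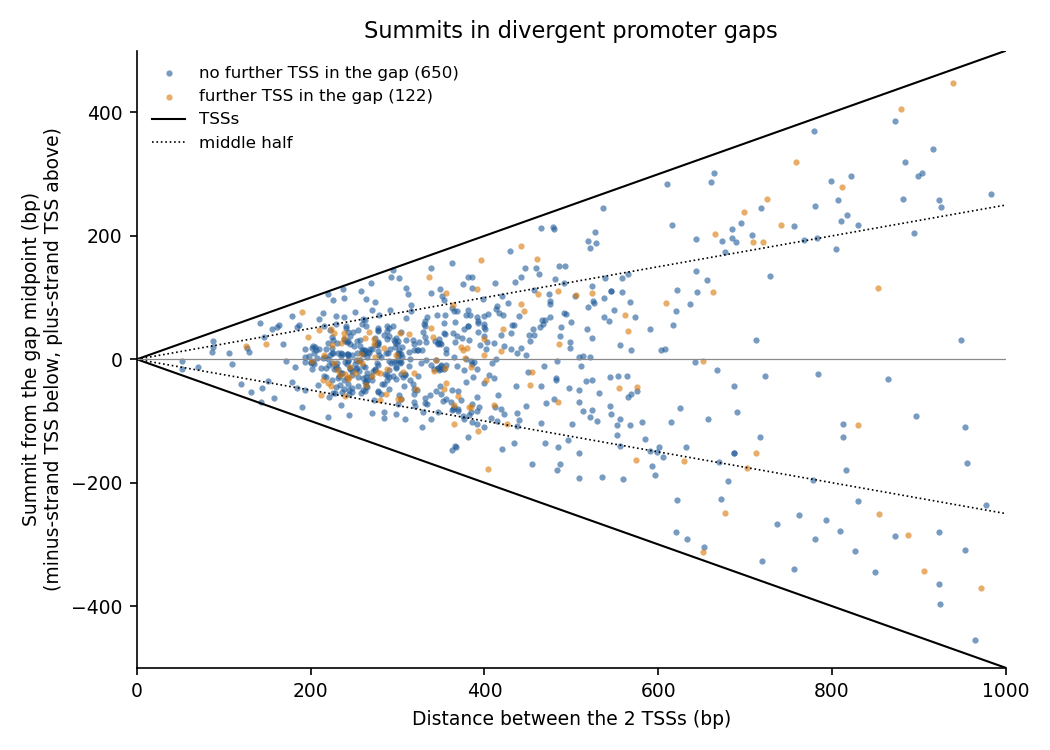
Distance of each of the 772 summits from the gap midpoint (y axis, bp, plus-strand TSS at the top) against the distance between both TSSs (x axis, bp); solid lines are the TSSs, dotted lines bound the middle 50% of the gap, and orange points have a further TSS in the gap. Points crowd around the midpoint between 200 and 400 bp and split towards both sides in gaps over 600 bp.

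The shortest gaps with a peak measured 52 bp, at CG32022/CG6511 and at trsn/Pef. The first ranked 142 in replicate 2 and 296 in replicate 3, and its interval of 428 bp covered both start sites. The second, next to the gene of the RNA-binding protein translin, was weak, with a signal of 157, rank 3490 in replicate 3 and no summit within 100 bp in replicate 2. Longest was ND-75/CG1632 at 983 bp, a gene of respiratory complex I and its neighbour, with a signal of 149 and a summit 224 bp from the nearer TSS. Just beyond the limit of 1000 bp stood the peaks of raptor/Nep1 (gap 1004 bp, signal 172), Eno/Rrp40 (1015 bp, 837) and Rpn11/qtc (1025 bp, 230). Intervals covered at least 1 TSS in 70.3% of gap peaks and both in 28.5%.

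Several pairs held 2 summits. At Snx21/aph-1, a sorting nexin and a gamma-secretase subunit, a single interval of 609 bp carried a summit 178 bp from the Snx21 TSS (signal 729) and another 191 bp from the aph-1 TSS (signal 417). At DnaJ-H/Sirt1, where Sirt1 is a protein deacetylase, the summits lay 184 bp from the TSS of DnaJ-H (signal 660) and 162 bp from that of Sirt1 (345). The summit nearer to Sirt1 had no summit within 100 bp in replicate 2. Positions were 2765843 and 2766042 at Snx21/aph-1 and 13165202 and 13165402 at DnaJ-H/Sirt1, a similar spacing. Whether this spacing follows from the peak calling was not tested. Ac78C/chb, an adenylyl cyclase and the microtubule protein CLASP, had summits 98 bp from one TSS (397) and 203 bp from the other (893) in a gap of 923 bp. In Elp6/Dic1 the summits, of 1568 and 242, lay between different start sites of the same genes.

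Occupancy was counted over all divergent gaps in the annotation, taking the innermost TSSs of each gene pair. At least 1 optimal summit lay in 622 of 2463 gaps, or 25.3%. For comparison, 7.68% of the 9070 protein-coding genes beside no such gap had an optimal summit within 500 bp upstream. These are not like measures, since the first share is per gap, with a start site at either end, and the second is per gene. Per kb of sequence, gaps held 0.747 summits over all lengths, with 0.506 in gaps up to 200 bp, 1.42 in gaps over 200 and up to 400 bp, 0.681 in gaps over 400 and up to 600 bp and 0.295 in longer ones. The first 200 bp upstream of single-direction genes held 0.202.

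Occupancy changed sharply with the distance between the start sites. It was 1.47% of 408 gaps up to 100 bp and 8.98% of 334 gaps over 100 and up to 200 bp. It then reached 39.6% (35.5 to 43.9%) of 512 gaps over 200 and up to 300 bp and 42.2% (37.3 to 47.3%) of 367 gaps over 300 and up to 400 bp. In longer gaps the share was lower, at 34.3% for gaps over 400 and up to 500 bp and 16.7% (9.80 to 26.9%) for gaps over 900 bp, although these offer more sequence. Each replicate alone gave the same step. With its 5743 strongest summits, replicate 2 occupied 0.735%, 9.58%, 38.3% and 40.9% of the gaps in the first 4 steps of 100 bp, and replicate 3 occupied 2.45%, 10.5%, 38.7% and 39.2%. The weaker pooled peaks did not fill the shortest gaps, since 14.2% of gaps up to 200 bp and 61.9% of gaps over 200 and up to 400 bp held any pooled summit. A gap counted only if a summit lay between its TSSs, so the shortest gaps offer little sequence. Per kb, gaps up to 200 bp held 0.506 optimal summits, fewer than the 1.42 in gaps over 200 and up to 400 bp. That was more than the 0.295 in gaps over 600 bp. How much of the step follows from this counting rule was not tested.

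**Figure D3:**
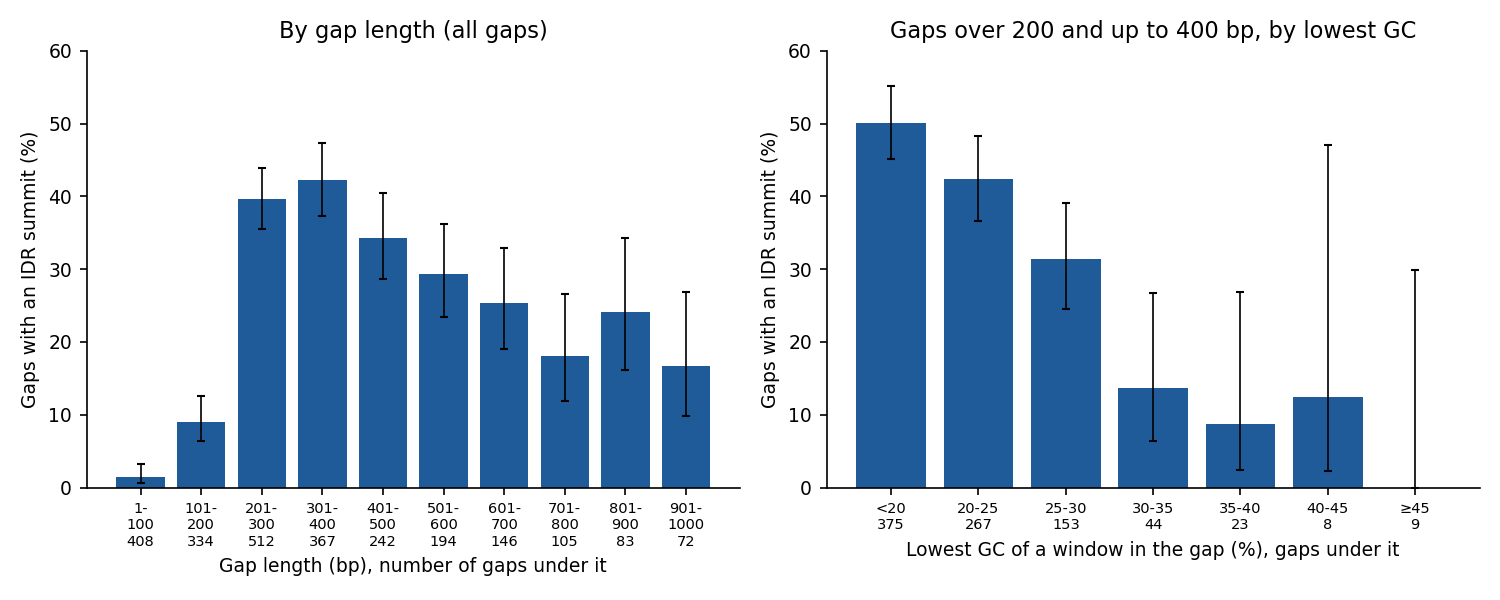
Share of divergent gaps with an optimal summit (y axis, percent; bars with Wilson 95% intervals; number of gaps under each bar) by gap length on the left and, for gaps over 200 and up to 400 bp, by the lowest GC of any window of that size in the gap on the right. The left panel steps up from 8.98% for gaps over 100 and up to 200 bp to 39.6% for gaps over 200 and up to 300 bp, and the right panel declines from 50.1% below 20% GC to 13.6% at 30 to 35% GC.

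Gap peaks sat on AT-rich sequence with GC-richer flanks. Within 50 bp of the summit GC averaged 29.2% ± 8.40 (SD, 772 gap peaks) and 31.0% ± 8.25 (1302 other upstream peaks). At 500 bp to either side it averaged 49.0% ± 6.88 for gap peaks and 43.2% ± 7.56 for other upstream peaks. GC at the summit was below that of the flanks in 93.0% of gap peaks and in 86.4% of other upstream peaks. The contrast between summit and flank was thus larger around gap peaks, mostly through the flanks. Such flanks were not particular to gaps with a peak. In 21 bp windows 500 bp to the left and right, GC averaged 49.4% and 49.3% for gap peaks. Around midpoints of gaps without a summit it averaged 48.3% and 48.7%.

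The lowest GC of any window centred in the gap and reaching 50 bp to either side averaged 19.8% ± 5.79 in the 622 occupied gaps and 27.4% ± 10.3 in the 1841 others. Windows in short gaps reach into the genes, so the comparison was repeated at one length class. In gaps over 200 and up to 400 bp the lowest GC averaged 20.04% ± 5.18 in 358 occupied gaps and 23.4% ± 7.23 in 521 others, with median gaps of 290 and 285 bp. Occupancy in that class was 50.1% (45.1 to 55.2%) of 375 gaps with a lowest GC under 20%, 42.3% of 267 at 20 to 25%, 31.4% of 153 at 25 to 30% and 13.6% (6.40 to 26.7%) of 44 at 30 to 35%. Over all gap peaks, the summit did not mark the GC minimum more closely than the midpoint did. Of gap peaks, 50.5% (47.0 to 54.0%) had the summit within 50 bp of the lowest window, while the midpoint was that near in 55.7% (52.2 to 59.2%). The order differed with gap length. For summit and midpoint the shares were 70.7% and 61.0% in gaps up to 200 bp and 63.2% and 74.7% over 200 and up to 400 bp. They were 30.3% and 32% over 400 and up to 600 bp, and 26.3% and 18.6% in longer gaps. Base composition thus moved with occupancy, and its part in it was not tested.

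**Figure D4:**
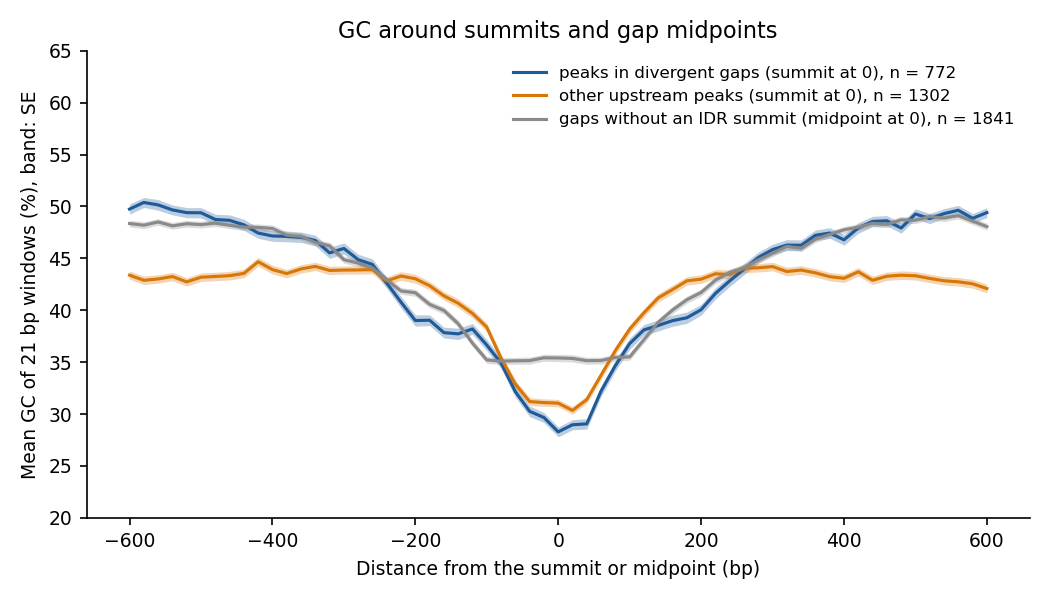
Mean GC of 21 bp windows (y axis, percent, band SE over peaks or gaps) by distance from the summit of gap peaks (blue), from the summit of other upstream peaks (orange) and from the midpoint of gaps without an optimal summit (grey). The blue curve is lowest at the centre and joins the grey one in the flanks, above the orange one.

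Forkhead patterns were searched in gap peaks, other upstream peaks and unoccupied gaps. On either strand within 50 bp of the summit, GTAAACA was found in 3.11% (2.10 to 4.58%) of gap peaks, 2.76% (2.00 to 3.80%) of other upstream peaks and 3.15% (2.44 to 4.05%) of midpoints of gaps without a summit. TAAACA, which the longer pattern contains, was found in 18.1% of gap peaks, 15.7% of other upstream peaks and 14.0% of those midpoints. Over all gap midpoints its share was 15.0%. In the lowest-GC windows of unoccupied gaps, which are closer to gap peaks in base composition, it was 17.7%. GTAAATA was found at 6.09% (4.61 to 8.002%) of gap peaks, 6.37% (5.17 to 7.83%) of other upstream peaks and 3.75% (2.97 to 4.72%) of midpoints of gaps without a summit, with 3.98% over all gap midpoints and 6.04% of the lowest-GC windows of unoccupied gaps. When the whole of each gap over 200 and up to 400 bp was searched, GTAAATA occurred in 15.6% (12.2 to 19.8%) of occupied gaps and 10.2% (7.86 to 13.1%) of the others. GTAAACA occurred in 10.3% of those occupied gaps and 7.68% of the others, and TAAACA in 37.2% and 35.1%. In the same search, AT-only patterns were also more common in occupied gaps. TATAAA occurred in 59.2% and 49.9%, TAATTA in 33.8% and 28.8%, and AAAAAAA in 29.9% and 27.8%. Occupied gaps of this class also had the lower mean lowest GC, 20.04% against 23.4%. Whether GTAAATA differed beyond base composition was not tested.

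Patterns of housekeeping promoter factors followed another order. TATCGATA, the site of DREF, was found at 2.59% (1.68 to 3.97%) of gap peaks, 0.768% (0.418 to 1.41%) of other upstream peaks and 5.98% (4.98 to 7.15%) of midpoints of gaps without a summit, with 4.87% over all gap midpoints. CGATA, which the DREF site contains, was found at 17.7% (15.2 to 20.6%) of gap peaks, 12.7% (11.0 to 14.6%) of other upstream peaks and 27.6% (25.6 to 29.7%) of those midpoints. It was less common at the 386 stronger gap peaks, at 12.2% (9.28 to 15.8%), than at the 386 weaker ones, at 23.3% (19.4 to 27.8%). GGTCACACT was found at 0.518% of gap peaks and 2.77% of midpoints of gaps without a summit. With the window at the midpoint in both, TATCGATA was found in 1.61% of occupied gaps and 5.98% of the others, CGATA in 13.5% and 27.6%, and GGTCACACT in 0.322% and 2.77%. When the whole of each gap over 200 and up to 400 bp was searched, TATCGATA occurred in 21.5% (17.6 to 26.1%) of occupied gaps and 16.7% (13.7 to 20.1%) of the others, and CGATA in 65.4% and 60.8%. GGTCACACT occurred in 4.47% (2.77 to 7.14%) of occupied gaps and 6.53% (4.71 to 8.98%) of the others. In this search, which differs in both window and gap length, the intervals of occupied and unoccupied gaps overlapped for all 3 patterns. Within 50 bp of summits and midpoints, AT-only patterns did not share 1 order. TAATTA was found at 15.9% of gap peaks, 11.0% of other upstream peaks and 9.13% of midpoints of gaps without a summit, against 16.3% of the lowest-GC windows of those gaps. AAAAAAA was found at 13.5% of gap peaks, 14.4% of other upstream peaks and 12.2% of those midpoints, against 18.2% of the lowest-GC windows.

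Over gaps of all lengths, genes of both ribosomes had the highest shares among the 12 lists. Cytoplasmic ribosomal protein genes bordered 53 gaps, of which 25 held a summit, or 47.2% (34.4 to 60.3%) against 25.3% of all gaps. Replicate 2 alone gave 47.2% and replicate 3 alone 41.5%. Their strongest gap peaks were at RpS27/Nup37 (signal 766), RpL34b/CG8132 (737) and RpL32/CG7943 (657). A summit was also common at ribosomal protein genes outside divergent pairs, with 13 of 33 having one within 500 bp upstream (39.4%, 24.7 to 56.3%) against 7.68% of all single-direction genes.

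Of 73 mitochondrial ribosomal protein genes, 57 bordered a divergent gap, and 21 of their 57 gaps held a summit, or 36.8% (25.5 to 49.8%). Of the 16 that bordered no gap, 0 had a summit within 500 bp upstream, which allows a share of up to 18.75% and so includes the 7.68% of all single-direction genes. Replicate 2 alone gave 40.4% of gaps and replicate 3 alone 38.6%.

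Over gaps of all lengths the lists named next lay nearer to the background than those of both ribosomes. Translation factors and tRNA synthetases had a summit in 15 of 46 gaps (32.6%), splicing genes in 6 of 19 (31.6%), Mediator and TFIID genes in 9 of 29 (31.0%), Rab and Vps trafficking genes in 10 of 36 (27.8%), respiratory chain and ATP synthase genes in 10 of 42 (23.8%), DNA replication and repair genes in 4 of 18 (22.2%) and proteasome genes in 5 of 26 (19.2%). All these intervals include 25.3%. In gaps over 200 and up to 400 bp, where 40.7% of all gaps held a summit, the order was another. The share there was 5 of 6 for splicing genes (83.3%, 43.6 to 97.0%), 6 of 8 for Mediator and TFIID genes (75%, 40.9 to 92.9%), 11 of 16 for cytoplasmic ribosomal protein genes (68.75%, 44.4 to 85.8%) and 13 of 19 for mitochondrial ones (68.4%, 46.0 to 84.6%). It was 3 of 6 for DNA replication and repair, 8 of 17 for the respiratory chain and ATP synthase, 7 of 16 for translation factors and tRNA synthetases, 4 of 12 for Rab and Vps and 3 of 12 for the proteasome. Named examples were IleRS at Hem/IleRS (signal 880), Taf5/Pex6 (852), Fur1/Vps33B (1119.8), Msh6/Prp31 (467), ND-ASHI/Fum1 (697), TH1/mei-41 (878) and l(2)37Bb/Rpn3 (471). The median percentile of signal was 84.8 over the 11 gap peaks at Mediator and TFIID genes and 40.2 over the 8 at proteasome genes, against 56.9 over all gap peaks. Uncharacterised genes with CG numbers bordered 1352 gaps, 310 of them occupied (22.9%, 20.8 to 25.2%).

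Gene families of restricted expression had few divergent pairs. Of 179 chemoreceptor genes 26 bordered a gap (14.5%, against 34.96% of all protein-coding genes), and 1 of their 23 gaps held a summit (4.35%, 0.772 to 20.99%). That gap belonged to Idua/Gr32a, a lysosomal hydrolase and a gustatory receptor, and held 2 summits. The first was 167 bp from the TSS of Idua, with ranks of 1816 in replicate 2 and 1648 in replicate 3. The other was 366 bp from it, with ranks of 9915 and 2194 in the same order. Cuticle protein and Osiris genes bordered 4 gaps, and 0 of these held a summit, with an upper Wilson limit of 49.0%.

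**Figure D5:**
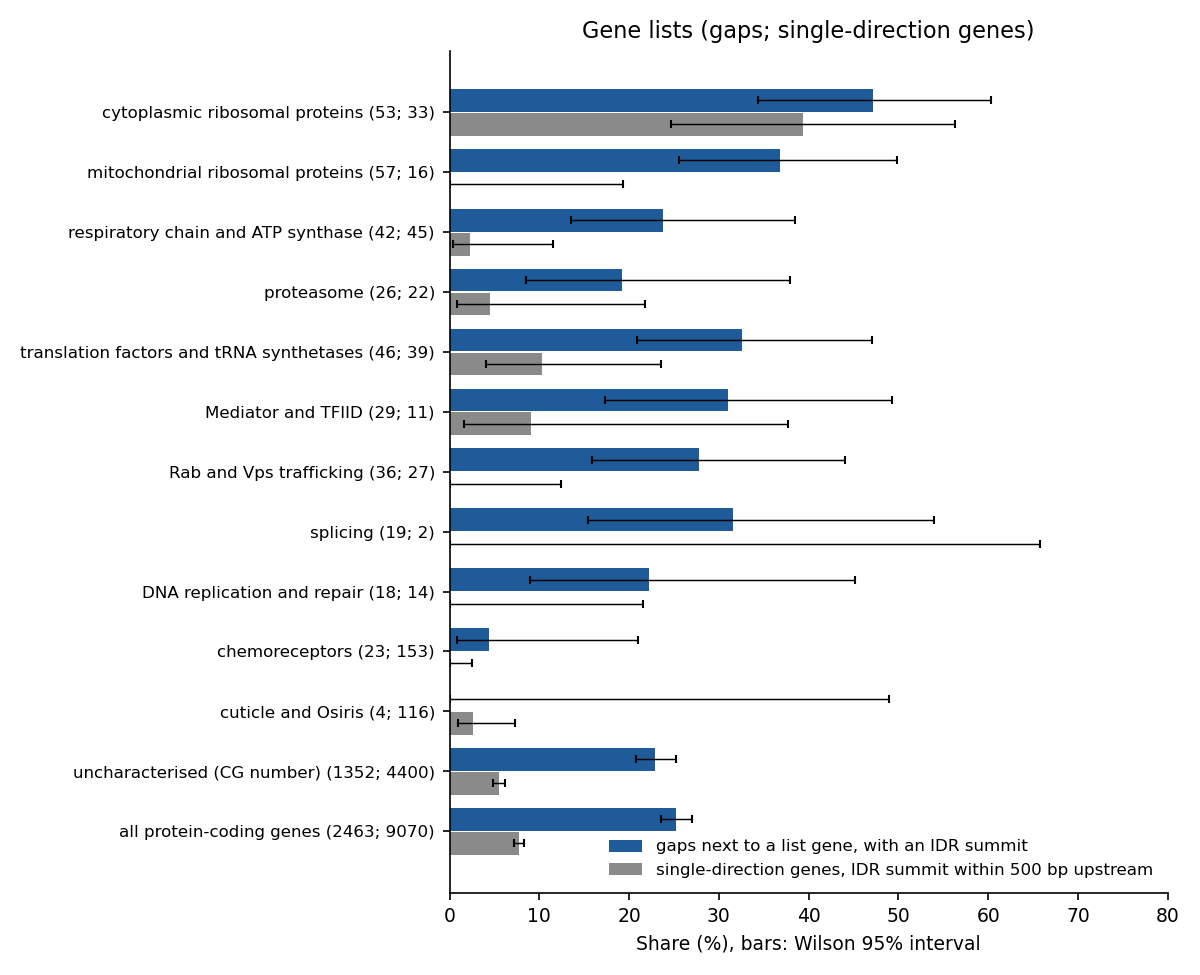
Share with an optimal summit (x axis, percent, Wilson 95% intervals) for gaps that border a gene of each list (blue) and, within 500 bp upstream, for genes of the list that border no gap (grey); numbers in brackets are gaps and single-direction genes. Cytoplasmic ribosomal protein genes are high in both (47.2% and 39.4%), mitochondrial ones have 36.8% in gaps and 0 of 16 outside.

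The share of occupied gaps was lowest on X among the 5 large arms. It was 15.0% (11.8 to 18.9%) of 386 gaps on X, 23.9% (20.3 to 27.9%) of 481 on 2L, 24.8% (21.2 to 28.7%) of 501 on 2R, 29.9% (25.9 to 34.1%) of 479 on 3L and 30.1% (26.6 to 33.9%) of 605 on 3R. Replicate 2 alone gave 16.1% on X and 29.1% on 3R, and replicate 3 alone 14.0% and 28.9%. In gaps over 200 and up to 400 bp the shares were 22.1% (15.9 to 29.98%) of 131 on X and 49.8% (43.4 to 56.2%) of 233 on 3R. Gaps on X had a median length of 303 bp and a mean lowest GC of 26.6%, close to the 295 bp and 25.3% on 3R. For single-direction genes the arms had similar shares, with an upstream summit at 8.54% (7.20 to 10.1%) on X and 7.92% (6.87 to 9.12%) on 3R. The difference between arms was not tested, since gaps of 2 libraries are not replicates.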

How the data were processed

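The authors deposited peak lists in dm6 for replicate 2, replicate 3 and the pooled replicates, 30000 peaks each, and an optimal set of 5743 peaks. Per the file headers of the accompanying notes, each list was derived from alignments and a control file, and the optimal set by the irreproducible discovery rate (IDR) procedure. No source used here names the aligner, the peak caller or the IDR threshold. For every peak the authors deposited a signal and the −log10 of its q-value. Only the signal was used, for ranks within a list, since its normalization is not stated. The lists hold no read totals, so depth is unknown. Summits were the start plus the deposited offset, and 3 optimal summits outside their interval were moved to its edge.

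TSSs were all transcript starts of the 13945 protein-coding genes on the 6 main arms in Ensembl release 115 (19253 positions). Sequence came from Release 6 of the genome. A gap is bounded by the nearest minus-strand TSS to the left and plus-strand TSS to the right of a summit. Over the annotation, 1 gap per gene pair was kept, and it counted as occupied only if a summit lay between its innermost TSSs. A looser count, by gene pair, was computed first and is kept as an alternative. Single-direction genes border no gap, and their most upstream TSS was used. Lowest GC was taken over windows of 50 bp to either side of their centre. The 13 motifs were searched on both strands, and the 12 gene lists were made from symbol patterns.

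The gap peaks, lists and motifs were chosen with earlier results of these data known. The set of remaining optimal peaks, the windows at midpoints of occupied gaps, the whole-gap search, the split of gap peaks by strength, the counts by arm and list within 1 length class and in each replicate, and the unoccupied gaps printed were added after the data were seen. Genes are named as the pairs of the 20 strongest gap peaks, of the 5 shortest and 5 longest gaps, of up to 5 gaps with 2 summits and of the 5 largest rank ratios, and up to 3 pairs per list, of which the text gives a part. A single group of 2 libraries allows no test between groups. Shares carry Wilson 95% intervals for counting over peaks or gaps. A count of 0 allows up to 3 counts. For the few gaps of cuticle protein and Osiris genes the Wilson limit was given instead. The code for finding gap peaks was tested on simulated data. Software was Python 3.11.15 with matplotlib 3.10.9, scipy 1.17.1, pandas 2.3.3 and numpy 2.4.6.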

Additional observations from a re-analysis of the deposited data

How the results depend on the processing

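No paired analysis was possible because both libraries belong to 1 group. The number of gap peaks was 744 to 774 with 1 replicate alone (its 5743 strongest peaks), 583 to 961 with limits of 500 and 2000 bp, and 442 in the stronger part of the optimal set. Their median signal percentile was 54.4 to 63.5 with 1 replicate, the higher value with replicate 2, against 56.9. The difference in median percentile from other upstream peaks, 1.05 points, had no stable sign: it was -1.24 to 5.86 with 1 replicate, the higher value again with replicate 2, 5.43 with gaps up to 500 bp, -0.59 with gaps up to 2000 bp, -0.95 with 1 TSS per gene, -0.35 without further TSSs in the gap, -2.07 against peaks within 500 bp and -6.50 in the stronger part. The median distance to the nearer TSS was 108 bp with gaps up to 500 bp, 125 bp up to 2000 bp, and 113 to 118 bp with 1 replicate. The share in the middle 50% of the gap was 82.3% with gaps up to 500 bp, 64.8% up to 2000 bp, 73.7% with 1 TSS per gene, 79.4% in the stronger part, and 71.6 to 72.9% with 1 replicate. The share strong in both replicates was 97.7% in the stronger part, which selects for rank, and 69.4% when summits had to match within 50 bp. Occupied gaps made up 25.6% with a limit of 500 bp, 24.6% with 2000 bp, 25.9% with 1 TSS per gene, 21.9% with TSSs of all annotated genes other than transposons, 14.0% in the stronger part, which has fewer peaks, and 24.4 to 24.9% with 1 replicate. The share was 30.2% when a pair counted with a summit between any of its TSSs, an alternative chosen after seeing the data. Where no construction is named, the cause was not tested. The share strong in both replicates has no value with 1 replicate alone. Unknown depth limits all lists.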
